A study of Caenorhabditis elegans with 6 samples.

Results

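The genes described here are 70 autosomal protein-coding genes of Caenorhabditis elegans with far more 22G-RNAs in lotr-1 mutant than in wild-type gravid adults. They were chosen by the levels themselves. A gene was taken when each of the 3 lotr-1 libraries held at least 20 CPM (the count per 1000000 22G-RNA counts of the library) and at least 8 times the highest of the 3 wild-type CPM values. Histone, major sperm protein, ribosomal protein, F-box and MATH or BATH family names, and a few other sperm gene families, were left out. Of 16462 candidate genes, 1936 had 20 CPM or more in every lotr-1 library, 77 passed the 8-fold limit at any CPM, and 70 passed both. The files hold 22336 loci in all, of which 79 passed the same limits. Besides the 70 genes, these were 6 of 2103 pseudogenes, 1 of 2670 X-linked protein-coding genes (Y73B3A.20), 1 of 581 genes of the families left out (fbxa-14), 1 of 181 lincRNAs (linc-81) and 0 of 151 transposon families. Because the contrast between the groups chose the genes, their levels, fold changes and calls are given as a description and support no claim.

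Small RNAs of whole gravid adults were sequenced from wild-type N2 and from the alleles lotr-1(xf58) I in strain RFK592, lotr-1(xf60) I in strain RFK593 and lotr-1(xf61) I in strain RFK594. All worms were collected 63 h after synchronized larvae were plated, and all RNA was treated with RppH, an enzyme that removes pyrophosphate from 5′ ends so that 22G-RNAs can be ligated. Wild-type was sampled with 3 libraries and each allele with 1 library, so allele and worm population cannot be told apart. The 3 alleles are separate deletions in lotr-1, and the study's methods treat them as triplicates. The paper gives xf58 as an in-frame loss of most of the LOTUS domain. The labels do not say whether the 3 N2 libraries came from separate cultures, so p-values measure only the spread between these libraries. In whole worms, a change in the number of cells that carry a 22G-RNA and a change in its level per cell cannot be told apart.

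22G-RNAs are made by RNA-dependent RNA polymerases, which copy a messenger RNA into short antisense RNAs that start with G. They are loaded into worm-specific Argonautes such as HRDE-1 and other WAGO proteins, which silence their targets, or into CSR-1, which is mostly associated with genes expressed in the germline. Much of this amplification takes place in layered germ granules beside the nucleus, namely the P granule, the Mutator focus and the Z granule, where the helicase ZNFX-1 resides. LOTR-1 is a protein with LOTUS and Tudor domains found with ZNFX-1. A 22G-RNA level therefore depends in part on how strongly a transcript is used as a template. By itself it says nothing about the level of the mRNA.

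Total 22G-RNA counts lay between 3706296 and 4520488 per library, so that 1 count was worth 0.221 to 0.270 CPM. The lotr-1 gene itself had 245, 293 and 275 counts in wild-type and 88 (xf58), 20 (xf60) and 47 (xf61) in the alleles (log2 fold change −1.48, SE 0.40, adjusted p = 0.0184 in edgeR's quasi-likelihood test with Benjamini-Hochberg adjustment), and a deleted stretch cannot be counted in its allele. Across the table, 1746 of 9285 loci tested were called up and 1634 down, at an adjusted p under 0.1 and a change over 2-fold with TMM scaling. TMM, a scaling that centres most loci on no change, gave a median log2 fold change of 0.01 over all loci, against −0.88 with total counts. The log2 fold changes below are on the TMM scale, whereas CPM values and ratios of CPM use total counts. Pairs of wild-type libraries were close to sampling noise (chi-square per degree of freedom 1.51 to 1.91), whereas xf60 and xf61 differed with 9.38 and xf58 differed from either with 49.3 to 60.3. 22G-RNAs on spermatogenic marker genes moved in the same direction as the 70 genes, with 12 of 17 tested called up, 1 called down and a summed level of 122 to 151 CPM in wild-type and 248 to 294 CPM in the mutants over 68 genes. The other marker lists did not share this direction clearly. On 11 oogenic genes, of which perm-2 was at 0, the sum was 375 to 409 CPM in wild-type and 191 to 211 CPM in the mutants, and on 7 general germline genes it was 536 to 541 and 254 to 285 CPM. These sums use total counts. With TMM, edgeR called 0 of the 9 oogenic genes tested (5 at an unadjusted p under 0.05) and 0 of the 7 germline genes (3), and DESeq2 called 0 in either list. With total counts, edgeR called 4 oogenic and 2 germline genes down. Muscle markers (2 genes) had 10.3 to 13.7 and 0.731 to 1.62 CPM, neuronal markers (3 genes) 36.7 to 44.7 and 19.5 to 44.5 CPM, intestinal markers (4 genes) 4.49 to 6.86 and 6.48 to 14.9 CPM, and hypodermal markers (2 genes, with col-19 at 0) at most 0.244 CPM in any library. None of the 70 genes is on a marker list. For the spermatogenic list this was largely fixed in advance, since its msp-, ssp-, ssq-, nspd- and smz- names were left out by the rule. The part of germ cell composition in the levels of the 70 genes was not tested.

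Together the 70 genes held 0.273%, 0.271% and 0.268% of a wild-type library's 22G-RNA counts. In the alleles they held 5.61% (xf58), 9.90% (xf60) and 8.88% (xf61). The means were 0.271% ± 0.00242 (SD, n = 3) and 8.13% ± 2.24 (SD, n = 3). The 95% Wilson intervals of the single libraries were 5.58 to 5.63% (xf58), 9.87 to 9.93% (xf60) and 8.85 to 8.90% (xf61), and they cover counting error only. The spread between alleles was thus far wider than counting error. sea-2 alone held 0.0306 to 0.0314% in wild-type and 0.588%, 2.30% and 1.89% in the alleles. Without it the other 69 genes held 5.02%, 7.60% and 6.99% in the alleles, with a mean of 6.54%.

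**Figure D1:**
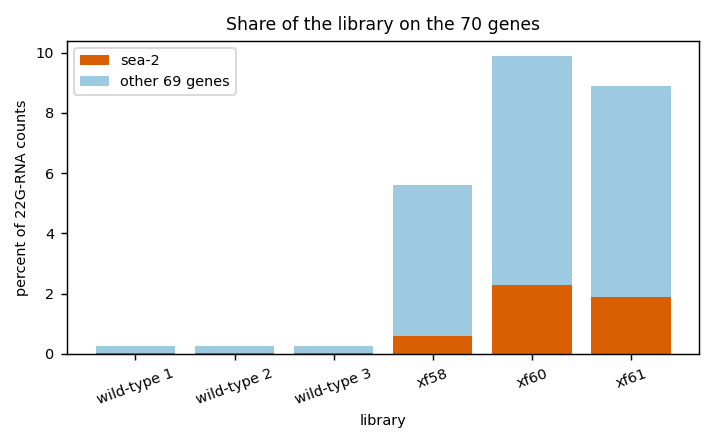
Percent of all 22G-RNA counts that fell on the 70 genes, 1 bar per library, with sea-2 in orange and the other 69 genes in blue. The wild-type bars stand at 0.268 to 0.273%, and the lotr-1 bars at 5.61% (xf58), 9.90% (xf60) and 8.88% (xf61).

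The typical gene of the set had few counts in wild-type and was among the well-covered genes in the alleles. The median level over the 70 genes was 9.11 to 10.4 CPM in wild-type, 290 CPM in xf58, 504 CPM in xf60 and 452 CPM in xf61. In wild-type, 26 of the genes reached 20 CPM in at least 1 library and 16 stayed under 5 CPM in all, but none was at 0. Of the 100 candidate genes with the most counts, 0 were of the set in any wild-type library, against 15, 16 and 16 in the alleles. The median rank among 16462 candidates moved from between 5456 and 5698 in wild-type to 383, 215 and 242 in the alleles. sea-2 ranked 300 to 309 in wild-type, sixth in xf58 and first in both xf60 and xf61.

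Over the 70 genes, the ratio of the lotr-1 mean to the wild-type mean had a median of 30.7 and ranged from 10.8 at srlf-1 to 367 at fmil-1. Taken singly, xf58 had a median ratio of 21.9, xf60 of 30.4 and xf61 of 27.8. The ratio was 100 or more at 8 genes, namely fmil-1, Y54G2A.11, crtc-1, mab-10, dpy-1, islo-1, K11H12.7 and grh-1. Wild-type counts were few for some genes, K11H12.7 among these 8 included. In all, 6 genes (xdh-1, K11H12.7, col-68, Y57G11C.8, nex-2 and asp-16) averaged under 10 counts per wild-type library, and their ratios carry a correspondingly large counting error. All 70 genes passed the filter on low counts and were called up, where 18.8% of all loci tested were called up. Since the rule used this contrast, nothing is read from that count. Their log2 fold changes ran from 4.32 to 9.43 with a median of 5.84, and the highest adjusted p was 0.00065 (edgeR's quasi-likelihood test, Benjamini-Hochberg over all loci).

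**Figure D2:**
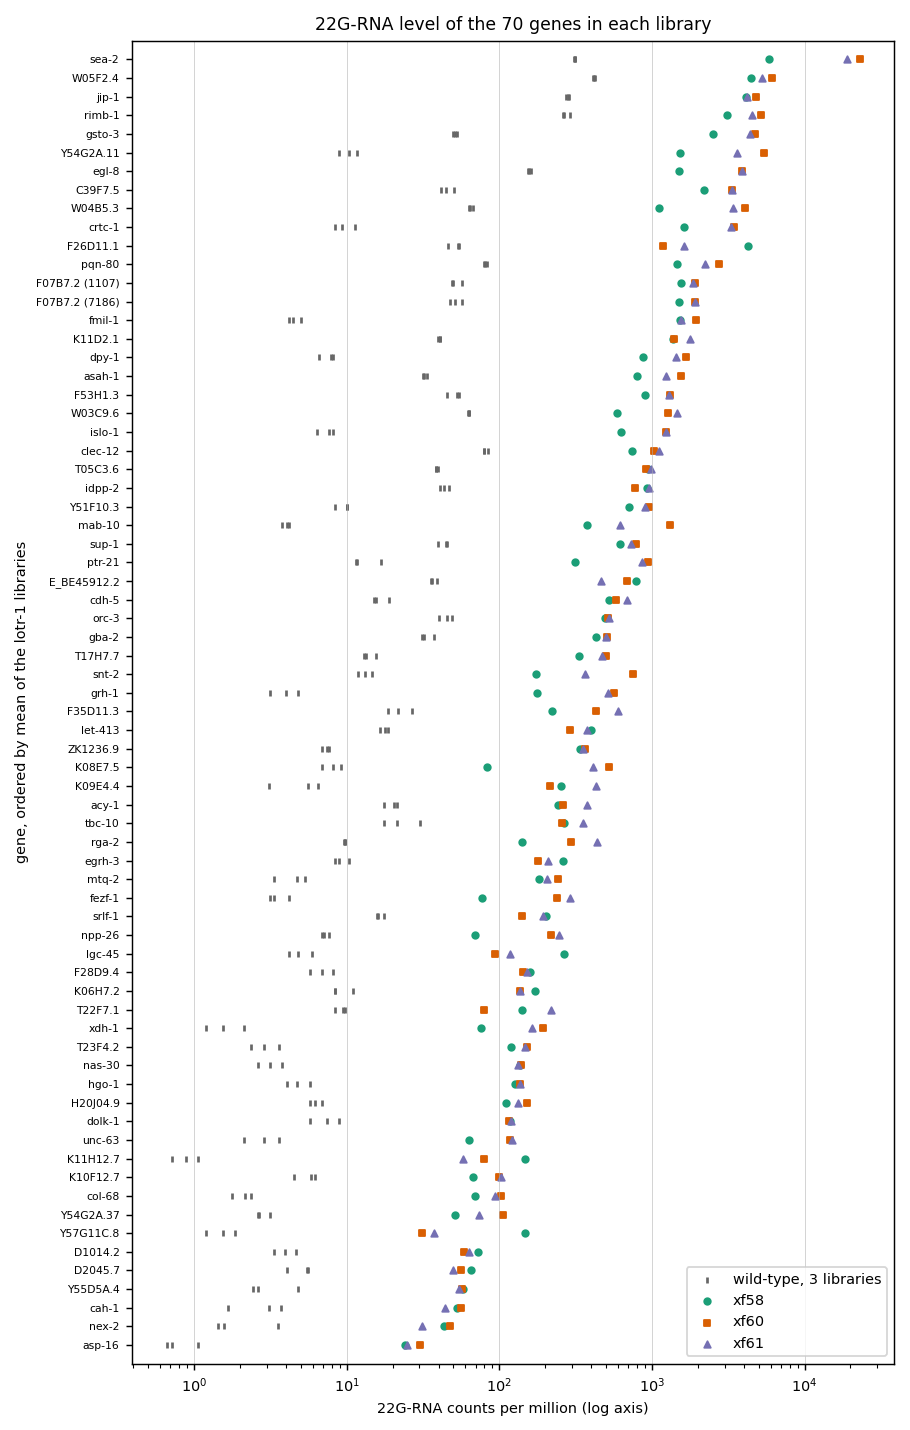
22G-RNA level of each of the 70 genes on a log axis in CPM, with grey ticks for the 3 wild-type libraries, circles for xf58, squares for xf60 and triangles for xf61, ordered by the lotr-1 mean. The rule separates the ticks from the symbols at every gene, from sea-2 at 306 to 314 CPM against 5876 to 22997 CPM down to asp-16 at 0.664 to 1.06 CPM against 24.3 to 30.5 CPM. The symbol names 2 genes as F07B7.2, told apart by the end of their identifiers.

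The members are described by known role, in groups put together after their values were known. The first group is 6 genes that regulate transcription. sea-2, a zinc finger protein that acts as an autosomal signal element in sex determination by its effect on xol-1, lies on chromosome II at 3950377 to 3972140 (WBcel235). It had 306, 314 and 312 CPM in wild-type, 5876 CPM in xf58, 22997 CPM in xf60 and 18873 CPM in xf61, a ratio of means of 51.2. Its wild-type libraries were nearly equal, whereas xf58 was far below both other alleles.

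crtc-1 encodes the CREB-regulated transcription coactivator, which links nutrient signalling to lifespan, and lies on chromosome I at 2026316 to 2033748. Its level was 9.35, 11.3 and 8.45 CPM in wild-type and 1613, 3439 and 3290 CPM in the alleles, a ratio of 287. mab-10 encodes a NAB-type cofactor that works with LIN-29 at the switch from larva to adult, and had 4.07, 3.76 and 4.22 CPM in wild-type against 374, 1312 and 620 CPM in the alleles. Here the 3 alleles did not cluster, and xf60 held more than xf58 and xf61 together.

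grh-1, the worm Grainyhead factor of the epidermis, had 3.17 to 4.79 CPM in wild-type and 175, 562 and 519 CPM in the alleles. fezf-1, a zinc finger factor on chromosome IV, had 3.17 to 4.20 CPM in wild-type and 77.4, 238 and 289 CPM in the alleles. egrh-3, a zinc finger factor of the EGR type by its name, had 8.39 to 10.4 CPM in wild-type and 260, 179 and 209 CPM in the alleles. xf58 was thus the highest allele at egrh-3 and the lowest at the other 5 genes of the group. The median ratio of means of the 6 genes was 80.8, with a range of 23.3 to 287, beside 30.7 over all 70 genes. The steepest single ratios of the set lay outside this group, at fmil-1 and Y54G2A.11.

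The 9 genes with roles at synapses or in signalling had a lower median ratio of 19.6, with a range of 14.9 to 139. Of these, jip-1, rimb-1 and egl-8 already had 155 to 291 CPM in wild-type. At snt-2, islo-1, lgc-45 and unc-63 no wild-type library was above 14.6 CPM. jip-1, a scaffold for JNK signalling that also binds the kinesin motor, had 273, 285 and 282 CPM in wild-type and 4165, 4840 and 4212 CPM in the alleles. rimb-1, the RIM-binding protein of the presynaptic active zone, had 291, 263 and 267 CPM in wild-type and 3108, 5216 and 4508 CPM in the alleles. The alleles stood closer together at jip-1 than at rimb-1, where xf58 was clearly the lowest.

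egl-8, the phospholipase C beta that acts downstream of Gq in neurotransmission, lies near the left end of chromosome V at 20818 to 43704. Its level was 162, 157 and 155 CPM in wild-type and 1500, 3915 and 3893 CPM in the alleles, so xf60 and xf61 were alike and xf58 was lower. islo-1, an adaptor that places the SLO-1 potassium channel in muscle, had 6.42 to 8.15 CPM in wild-type and 623, 1234 and 1237 CPM in the alleles, the highest ratio of this group.

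The remaining signalling genes were smaller in counts. sup-1, a small membrane protein known from suppression of unc-17 mutants, had 39.5 to 45.7 CPM in wild-type and 619 to 782 CPM in the alleles. snt-2, a synaptotagmin, had 11.9 to 14.6 CPM and 173, 750 and 363 CPM, and acy-1, an adenylyl cyclase, had 17.5 to 21.4 CPM and 243 to 374 CPM.

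Receptor and channel subunits were at the low end of the set. unc-63, a subunit of the levamisole-sensitive acetylcholine receptor of muscle, had 2.11 to 3.59 CPM in wild-type and 63.4, 117 and 121 CPM in the alleles. lgc-45, a ligand-gated ion channel of the cys-loop family, had 4.22 to 5.97 CPM and 267, 93.3 and 117 CPM. xf58 was the lowest allele at unc-63 and the highest at lgc-45.

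Of the 7 genes of epidermis, adhesion and cuticle, dpy-1 had the largest ratio. dpy-1 is one of the genes whose loss makes worms short and fat, and lies on chromosome III at 2034988 to 2048007. It had 7.91, 8.18 and 6.60 CPM in wild-type and 869, 1661 and 1433 CPM in the alleles, a ratio of 175. The group's median ratio was 42.1, with let-413 as the lowest.

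let-413, the worm homologue of Scribble that organizes epithelial junctions, had 16.6 to 18.6 CPM in wild-type and 400, 292 and 374 CPM in the alleles. ptr-21, a patched-related membrane protein, had 11.5 to 16.8 CPM and 312, 948 and 863 CPM, and cdh-5, a cadherin, had 15.0 to 19.01 CPM and 520, 580 and 682 CPM. The alleles thus kept within a narrow range at let-413 and cdh-5 and spread more widely at ptr-21.

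The cuticle collagen col-68 had 1.77 to 2.38 CPM in wild-type and 69.1, 103 and 93.6 CPM in the alleles. nas-30, an astacin metalloprotease, had 2.64 to 3.76 CPM and 137, 140 and 132 CPM, with the 3 alleles closer to each other than at most genes of the set.

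The 7 metabolic enzymes had a median ratio of 27.4. gsto-3, an omega-class glutathione transferase on chromosome III at 378137 to 381298, stood out with 51.0, 49.6 and 53.1 CPM in wild-type and 2502, 4764 and 4363 CPM in the alleles. Per kilobase of exon, its 930 exon bases gave it the densest coverage of the set, with a lotr-1 mean of 4168 CPM per kb, ahead of F26D11.1 with 2926 and sea-2 with 2447 CPM per kb. The median over the 70 genes was 242 CPM per kb in lotr-1 and 6.39 CPM per kb in wild-type, and the lowest in lotr-1 was nex-2, an annexin, with 20.3 CPM per kb.

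Both of the lysosomal lipid enzymes in the set rose with a gene directly beside them. asah-1, an acid ceramidase, had 33.5, 32.1 and 31.4 CPM in wild-type and 800, 1562 and 1245 CPM in the alleles. gba-2, a glucocerebrosidase, had 37.1, 31.4 and 31.9 CPM and 432, 508 and 497 CPM.

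The other enzymes had under 10 CPM in every wild-type library. xdh-1, a xanthine dehydrogenase that degrades purines, had 1.198 to 2.11 CPM in wild-type and 76.1, 192 and 163 CPM in the alleles, and 66 annotated piRNA genes lie within its bounds. hgo-1, the homogentisate oxidase of tyrosine breakdown, had 4.07 to 5.75 CPM and 126 to 137 CPM. dolk-1, a dolichol kinase of protein glycosylation, had 5.75 to 8.87 CPM and 116 to 118.6 CPM, and cah-1, a carbonic anhydrase, 1.68 to 3.70 CPM and 44.0 to 56.1 CPM. With total counts the alleles differed least of all 70 genes at dolk-1, with a coefficient of variation of 1.25%. This depended on the scaling. With TMM, dolk-1 had 141, 177 and 169 CPM in xf58, xf60 and xf61, and D1014.2 was closer together with 86.8, 89.4 and 89.6 CPM.

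The other 41 genes were either known for other roles or carried a sequence name only, as 30 of the 70 did. Their median ratio was 24.7. W05F2.4, on chromosome I, had 416, 421 and 414 CPM in wild-type, the highest of the set, and 4432, 6081 and 5301 CPM in the alleles. Y54G2A.11, on chromosome IV, had 11.7, 10.4 and 8.98 CPM in wild-type and 1528, 5450 and 3622 CPM in the alleles, a ratio of 341. C39F7.5 had 41.7 to 50.6 CPM in wild-type and 2187, 3372 and 3335 CPM in the alleles. All 3 genes kept xf58 as the lowest allele.

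W04B5.3 had 63.0 to 67.6 CPM in wild-type and 1116, 4096 and 3380 CPM in the alleles, and pqn-80, which has a glutamine- and asparagine-rich region of prion type, had 79.6 to 83.2 CPM and 1455, 2741 and 2223 CPM. fmil-1 had the largest ratio of the set, with 5.03, 4.42 and 4.22 CPM in wild-type and 1531, 1939 and 1557 CPM in the alleles. clec-12, a C-type lectin, had 79.2 to 84.1 CPM and 740, 1028 and 1118 CPM. Its ratio of 11.9 was among the lower ones of the set.

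Genes of the cell division and translation machinery were present singly. orc-3, a subunit of the origin recognition complex, had 40.02 to 49.1 CPM in wild-type and 491 to 525 CPM in the alleles. npp-26, a nucleoporin, had 6.86 to 7.67 CPM and 69.3, 218 and 245 CPM. mtq-2, a methyltransferase of translation release factors, had 3.35 to 5.31 CPM and 181, 244 and 204 CPM.

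A pair of the genes share the name F07B7.2 and are close copies by annotation, with 951 exon bases each, on chromosome V at 8828165 to 8829909 and at 8870259 to 8872003. In wild-type they averaged 52.0 ± 4.34 and 52.0 ± 4.81 CPM (SD, n = 3), and they had 1560, 1920 and 1859 CPM and 1509, 1905 and 1914 CPM in the alleles. Reads that fit both copies were placed at random by the aligner, so the level of either copy alone is uncertain. Each lies 273 bases from a copy of F07B7.1, and both of those were called up too, with log2 fold changes of 2.45 and 2.50.

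The alleles did not contribute equally. Relative to the mean of xf60 and xf61, the xf58 level had a median of 0.789 over the 70 genes with total counts. This ratio was under 1 at 52 genes, under 0.5 at 16 and over 2 at 4. xf58 was the lowest allele at 48 genes and the highest at 13, whereas xf60 was highest at 36 and xf61 at 21. With TMM scaling, xf58 was under 1 at 63 genes, under 0.5 at 23 and over 2 at 3, lowest at 57 and highest at 5. Among all 3175 tested loci with a lotr-1 mean of at least 20 CPM, the same ratio had a median of 1.17 and was under 1 at 32.0%. The TMM median was 0.640 over the 70 genes and 0.941 over those loci. With 1 library per allele, no test of the difference was possible.

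The lowest xf58 ratios were at K08E7.5 (0.179), sea-2 (0.281) and fezf-1 (0.294). K08E7.5 had 6.86 to 9.24 CPM in wild-type and 83.6, 522 and 410 CPM in the alleles. By role, the median xf58 ratio was 0.356 in the transcription group, 0.639 in the synapse and signalling group, 0.704 in the epidermis group, 0.859 among the enzymes and 0.826 among the others. These groups were made after the values were known, and no test compared them.

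A few genes went the other way. Y57G11C.8 had 1.198 to 1.85 CPM in wild-type and 147, 31.0 and 37.3 CPM in the alleles, an xf58 ratio of 4.30. F26D11.1 had 46.2 to 54.6 CPM in wild-type and 4258, 1187 and 1621 CPM in the alleles, a ratio of 3.03. lgc-45 followed with 2.53 and K11H12.7 with 2.16. With TMM scaling the ratios were 3.49 at Y57G11C.8, 2.46 at F26D11.1, 2.06 at lgc-45 and 1.74 at K11H12.7.

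xf60 and xf61 were closer to each other. Their ratio had a median of 1.03, ranged from 0.369 to 2.12 and lay within 2-fold at 66 of the 70 genes. The coefficient of variation over the 3 alleles had a median of 20.7% and reached 90.9% at Y57G11C.8 and 70.5% at F26D11.1, against a median of 10.3% over the wild-type libraries.

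**Figure D3:**
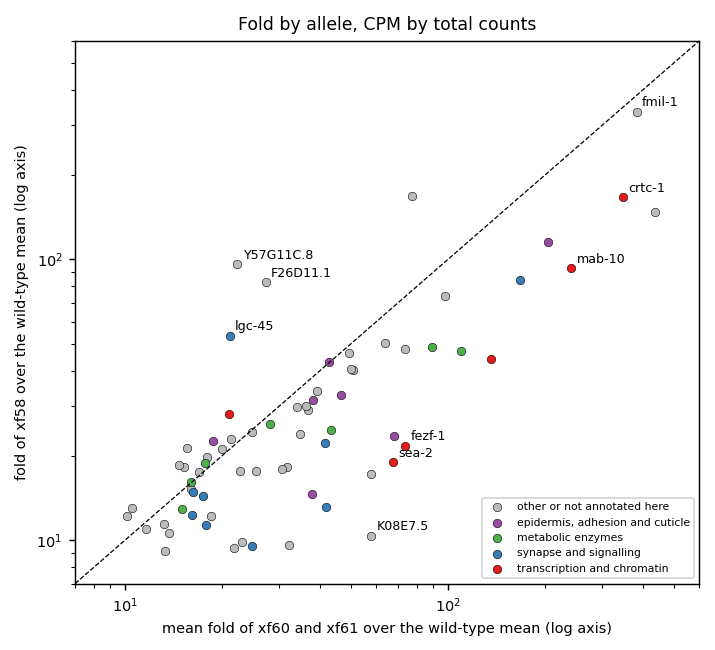
Ratio to the wild-type mean in xf58 (vertical, log axis) against the mean of that ratio in xf60 and xf61 (horizontal, log axis), 1 point per gene, coloured by role, with equality as a dashed line. Of the 70 points, 52 lie below the line, with K08E7.5 and sea-2 among the farthest below and Y57G11C.8, F26D11.1 and lgc-45 above it.

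The 12 genes with the most counts in lotr-1 held 60.2%, 68.8% and 66.0% of the counts on the set in xf58, xf60 and xf61, and 64.7 to 65.0% in wild-type. sea-2 alone took 10.5%, 23.2% and 21.3% in the alleles and 11.2 to 11.7% in wild-type. The share of the other 11 leading genes was therefore of the same order in both groups, and sea-2 gained weight in xf60 and xf61 only.

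The genes were spread over all autosomes, and were more often near the chromosome ends than the candidate genes. Chromosome III held 21 (30.0%, against 15.2% of the candidates), chromosomes I, II and IV 13 each, and chromosome V 10 (14.3% against 29.3%). The distance from the chromosome centre, as a percent of the distance from centre to end, had a median of 65.9 for the 70 genes, 49.9 for the 1866 other candidates with 20 CPM in every lotr-1 library, and 44.0 for all candidates. Beyond 66.7% of this distance lay 34 genes (48.6%), against 33.2% of those other genes and 26.8% of all candidates. The annotation alone gave these positions, and no test was made of them.

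**Figure D4:**
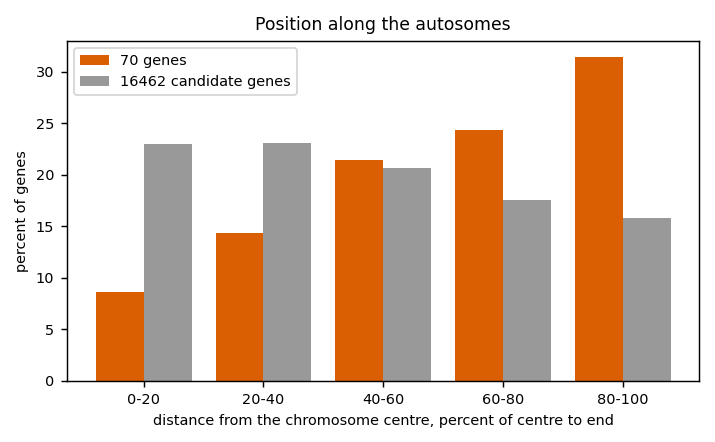
Percent of the 70 genes (orange) and of the 16462 candidates (grey) in 5 bins of distance from the chromosome centre, given as percent of the distance from centre to end. The orange bars climb from 8.57% in the innermost bin to 31.4% in the outermost, whereas the grey bars fall from 23.0% to 15.8%.

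In gene structure the set had the same median number of exons as other well-covered genes, fewer exon bases and a longer span. The median was 1588 exon bases and 7 exons, against 1980.5 bases and 7 exons for the 1866 other genes with 20 CPM in every lotr-1 library, and 1165 bases and 5 exons for all candidates. The median span from gene start to gene end was 4898.5 bases, against 3607.5 and 2026 bases. The plus strand held 44 of the 70 (62.9%, against 51.7% of the other covered genes and 50.3% of all candidates). Another gene overlapped on the same strand at 7 of the 70 (10.0% against 6.91% of the other covered genes), jip-1 among them, and on the opposite strand at 14, where 24.9% of the other covered genes had such an overlap. A piRNA gene lay inside 7 of them (10.0% against 3.54%), which besides xdh-1 held 1 each.

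Several of the genes lay side by side. In 4 pairs, no other protein-coding gene lay between the members. K11D2.1 and asah-1, on the plus strand of chromosome I, are separated by 103 bases, and gba-2 and mtq-2, on the minus strand of chromosome II, by 714 bases. gsto-3 and K10F12.7, on the minus strand of chromosome III, are 882 bases apart, and let-413 and F26D11.1, on opposite strands of chromosome V, 3768 bases. In all, 22 of the 70 genes lay within 100000 bases of another of them and 8 within 10000 bases.

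The genes of a pair did not always share the pattern over alleles. K11D2.1 had 39.6 to 41.1 CPM in wild-type and 1376, 1404 and 1777 CPM in the alleles, with xf58 and xf60 alike, whereas asah-1 was highest in xf60. K10F12.7 had 4.55 to 6.19 CPM and 67.2, 99.9 and 103 CPM, far fewer counts than gsto-3 but the same low xf58. F26D11.1 was highest in xf58 by a wide margin, and let-413 only narrowly and with total counts only. With TMM scaling let-413 was highest in xf61, with 477, 446 and 532 CPM in xf58, xf60 and xf61.

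The genes beside the set were looked at in the test across all loci. Such genes, unless of a family left out, were candidates of the rule too. Those that passed count as members, so the flanking genes are those that did not pass. The nearest protein-coding gene on each side, where not itself of the set, gave 127 flanking genes in the files, of which 85 passed the filter on low counts. Of these 85, 23 were called up (27.1%) and 9 down (10.6%) (edgeR's quasi-likelihood test, Benjamini-Hochberg adjusted p under 0.1 and over 2-fold). Of all 7718 autosomal protein-coding genes tested outside the set, the flanking genes included, 15.7% were called up and 18.3% down. The median log2 fold change was 0.26 for the flanking genes and −0.06 for the 7718 genes. With total counts, 15 flanking genes were called up (17.6%, against 7.31%), and the medians were −0.63 and −0.96. The 3 lotr-1 libraries all exceeded the 3 wild-type libraries in CPM at 19 flanking genes (22.4%, against 10.1%), each of them also called up. Of the 4 tested genes that overlap a member on its strand, and so can share its reads, 3 were called up. Among the 73 tested genes that overlap no member, 19 were called up (26.03%). No test compared these shares with those of the 7718 genes, so they are a description.

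By strand and distance these shares ran from 19.4% to 32.7%, and the differences between them were not tested. On the strand of the member, 16 of 49 were called up (32.7%), and on the opposite strand 7 of 36 (19.4%). Within 1000 bases it was 13 of 44 (29.5%), and farther away 10 of 41 (24.4%). Both the 16 and the 13 include the 2 copies of F07B7.1 and the 3 called genes that overlap a member on its strand. With the nearest 2 genes on each side, 37 of 155 were called up (23.9%).

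The flanking gene with the most counts was Y20F4.4, 573 bases from crtc-1 on the opposite strand. It had 1149, 1180 and 1143 CPM in wild-type and 5812, 11888 and 11310 CPM in the alleles (log2 fold change 4.01, SE 0.37, adjusted p = 0.00016 in edgeR's quasi-likelihood test). Like crtc-1 it was lowest in xf58, but it was already well covered in wild-type.

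The 3 largest log2 fold changes beside the set were at genes nearly without 22G-RNAs in wild-type. B0353.1, beside T22F7.1, had 2, 3 and 0 counts in wild-type and 73, 82 and 283 counts in the alleles (log2 fold change 7.25, SE 0.86). It missed the 20 CPM limit of the set with 19.7 CPM in xf58 and 19.98 CPM in xf60. Y54G2A.13, beside Y54G2A.37, had 3, 6 and 2 counts and 35, 241 and 256 counts (6.51, SE 0.94). A gene with a sequence name only (WBGene00194649) overlaps Y57G11C.8 on the same strand and had 6, 8 and 3 counts and 333, 68 and 64 counts (5.65, SE 0.83), the same high xf58 as Y57G11C.8. Reads in an overlap could have been counted for either gene.

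Other neighbours fell. gtf-2A2, a general transcription factor subunit 670 bases from pqn-80 on the same strand, had 224, 217 and 222 CPM in wild-type and 9.71, 4.14 and 6.02 CPM in the alleles (log2 fold change −4.19, SE 0.23, adjusted p = 2.5e-05 in edgeR's quasi-likelihood test). It lost its 22G-RNAs where pqn-80 gained them, and its groups did not overlap.

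As a single value per library, the 127 flanking genes held 0.934%, 0.930% and 0.917% of the counts in wild-type and 1.67%, 2.14% and 2.03% in the alleles. The means were 0.927% ± 0.00879 (SD, n = 3) and 1.95% ± 0.247 (SD, n = 3), a difference of 1.02 percentage points, higher in 3 of 3 lotr-1 libraries (p = 0.1 in a two-sided exact permutation test over the 6 libraries, which can give no smaller p). Y20F4.4 made up most of it. Without this gene the means were 0.811% ± 0.00813 and 0.980% ± 0.0953 (SD, n = 3), a difference of 0.17 percentage points, with the groups still apart and the same p of 0.1 in the exact permutation test.

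**Figure D5:**
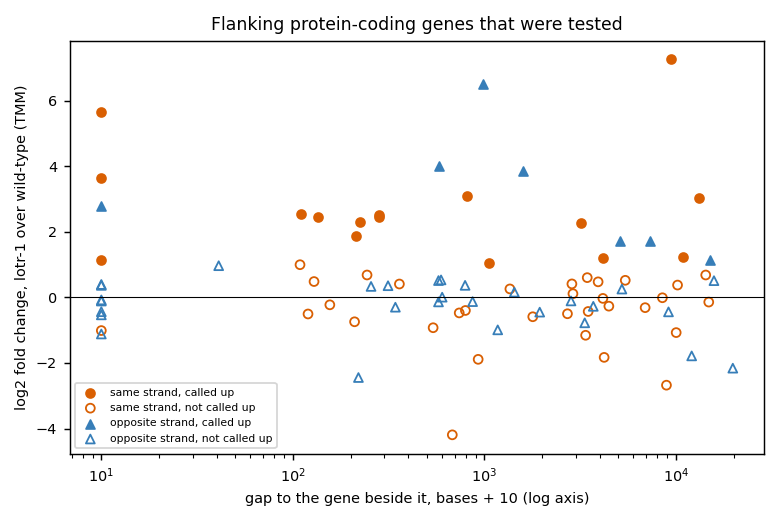
Log2 fold change (TMM) of the 85 flanking genes tested against the gap in bases to the gene of the set beside them (log axis, 10 added), with circles for the same strand, triangles for the opposite strand and filled symbols for genes called up. Filled symbols occur at all distances, 13 of 44 within 1000 bases and 10 of 41 beyond, and the lowest open circle is gtf-2A2 at −4.19.

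The wider families of the named genes were read from lists of gene names, and their split depended on the scaling. On the cuticle collagen list, 12 of 34 tested were called up and 3 down with TMM, against 8 up and 11 down with total counts. The members dpy-1 and col-68 were among those called up. dpy-1 was listed by its name, without a check that it encodes a collagen. The median log2 fold change of the list was 0.41 with TMM and −0.42 with total counts, beside 0.01 and −0.88 over all loci. Among ion channels, with lgc-45 called up, 16 of 48 were called up and 9 down with TMM and 10 and 20 with total counts. Among C-type lectins, with clec-12 called up, the counts of 26 tested were 10 up and 4 down with TMM and 3 and 8 with total counts. As shares, those called up on the collagen list were 35.3% with TMM and 23.5% with total counts. The channels called up were 33.3% and 20.8%, and the lectins 38.5% and 11.5%. All these shares count the members named, which the rule chose for being up, and shares without them are not given. Over all loci, 18.8% were called up and 17.6% down with TMM, and 8.68% and 44.7% with total counts.

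In the unc genes, 9 of 54 were called up (16.7%), unc-63 among them, and 8 down (14.8%) with TMM, near the shares over all loci, against 6 and 28 (11.11% and 51.9%) with total counts. Among Notch, Wnt and heterochronic genes, with mab-10 called up, it was 4 up and 2 down of 17 (23.5% and 11.8%), against 2 and 7 (11.8% and 41.2%). In insulin and CREB signalling it was 4 up and 3 down of 12, against 3 and 5. The 4 genes called up with TMM in that last list were akt-2, crh-1, crtc-1 and par-4. Of the genes named here, unc-63, mab-10 and crtc-1 are members, which the rule chose for being up.

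Genes of the small RNA pathway gave 7 called up (eri-1, meg-2, meg-3, meg-4, pid-4, rrf-2 and sid-1) and 6 called down of 65 tested with TMM, against 1 and 27 with total counts, and none belongs to the set. At 10.8% up and 9.23% down, fewer were called with TMM than over all loci in either direction. meg-3 and meg-4 encode disordered proteins that build the embryonic P granule, and rrf-2 is a relative of the RNA-dependent RNA polymerases. Nuclear hormone receptors, which have no gene in the set either, gave 18 up and 18 down of 79 with TMM (22.8% each). Over all loci the TMM shares were 18.8% and 17.6%. With total counts the receptors gave 9 and 38 (11.4% and 48.1%), beside 8.68% and 44.7% over all loci.

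Close to the limits of the rule, the genes just inside the 8-fold limit were srlf-1 at 8.005 times the highest wild-type CPM in its lowest lotr-1 library, T22F7.1 at 8.14 and F35D11.3 at 8.26. Just outside were C53D5.5 at 7.83, C30F12.5 at 7.80 and yif-1 at 7.59. C30F12.5 had 102 to 103 CPM in wild-type and 804 to 1286 CPM in the alleles, more counts than most genes inside. At the CPM limit, the lowest lotr-1 library was at 24.3 CPM for asp-16, 31.0 for Y57G11C.8 and 31.0 for nex-2 inside, and at 19.7 for B0353.1, 14.8 for WBGene00194649 and 11.06 for C17H1.2 outside. With the same limits mirrored, 103 candidate genes were at least 8-fold lower in every lotr-1 library.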

How the data were processed

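The authors deposited 1 file per library with the number of 22G-RNA reads on each gene or transposon family, as whole counts without normalization. Per the labels and the methods, adapters were removed with cutadapt 2.4, reads were aligned to WBcel235 with Bowtie 1.2.2, handled with SAMtools 1.9 and bedtools 2.27.1 and counted with featureCounts 1.6.2. Counted reads had 22 bases, started with G and lay antisense to a transposon or an exon, and a read with several equally good places was put at 1 of them at random. The submitters' processing notes also name DESeq2 1.30.0.

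Gene positions came from Ensembl release 115 on WBcel235, a later release than the one the authors used, which held 22014 of the 22185 genes, and 171 had no entry. The end of the last annotated gene was taken as the chromosome end. Counts of all loci in the 6 libraries were compared with edgeR 4.0.16 in R 4.3.3 (filterByExpr, TMM factors, glmQLFit and glmQLFTest, Benjamini-Hochberg). A locus was called at an adjusted p under 0.1 and a change over 2-fold. DESeq2 1.42.0, other scalings, filters and thresholds, a block for the replicate number, and fits without each library were the alternatives. The authors' own fold changes were not used. Total counts were 3706296 to 4520488, and 3 counts, taken as the floor, were 0.664 to 0.809 CPM. Permutation tests used scipy 1.17.1 and figures matplotlib 3.10.9.

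Genes, lists, marker lists and tests were chosen with earlier results of these data known, and the role groups were made after the members were known. Named by rule were the 12 members with the highest lotr-1 CPM, members on a gene list, the 4 leading adjacent pairs, the 3 members with the highest and lowest xf58 ratios, those around the 8-fold limit, and the 3 highest and 1 lowest flanking genes. Other genes were named after their values were seen. Near-identical copies other than F07B7.2, and promoter or transcript sequences, were not analysed here.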

Additional observations from a re-analysis of the deposited data

How the results depend on the processing

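All 70 genes were called up under every alternative fit, without each library in turn and with the replicate number as a block, and the log2 fold changes of the members and neighbours named by rule kept their direction and call. With total counts, 806 loci were called up and 4149 down, 15 flanking genes were called up, and the members' median log2 fold change was 4.93. With edgeR's test against a 2-fold change, 1155 loci were called up and 850 down, and lotr-1, at −1.48, was no longer called (adjusted p = 0.192). With TMM sizes in the rule, 113 genes would be chosen, with a 4-fold limit 126 and with a 16-fold limit 41, and the median xf58 ratio was 0.640 with TMM sizes. The nearest 2 neighbours on each side gave 37 flanking genes called up. Chosen after seeing the data, the flanking genes that overlap no member gave 19 called up, the flanking genes without Y20F4.4 gave a difference in flanking share of 0.168 percentage points, and the members without sea-2 a mean share of 6.54%. Causes of these shifts were not tested.

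Leaving out each library in turn gave 1677 to 1923 loci called up, 1455 to 2163 called down, 23 to 27 flanking genes called up, a median log2 fold change of 5.63 to 5.97, a log2 fold change of −2.04 to −1.14 at lotr-1, 71 to 103 genes chosen by the rule (103 without xf58, all 70 among them), a mean share of 7.24 to 9.39% and a flanking difference of 0.924 to 1.16 percentage points. Libraries of the same number did not deviate together (correlations 0.01, 0.03 and −0.03 over 9285 loci). Allele differences enter the mutant deviations, so this check cannot tell whether the numbers pair the libraries. With the replicate number as a block, 1693 loci were called up and 1723 down, 23 flanking genes were called up, the members' median was 5.68 and lotr-1 was at −1.62. The planned share of unique 22-base positions was not run.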
